A study of Mus musculus with 6 samples.

Results

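The mitochondrial respiratory chain was examined through 35 nuclear genes that encode subunits of complexes I to IV and cytochrome c, out of 27179 genes in the count table. They were taken by name from a list of subunits, and each matched 1 Entrez gene ID: 15 belong to complex I, 4 to complex II, 6 to complex III with cytochrome c, and 10 to complex IV. Ndufa4 carries a complex I name and is counted here with complex IV, where its protein is now placed. RNA was sequenced from mouse group 2 innate lymphoid cells (ILC2s), tissue lymphocytes that make type 2 cytokines, in 3 samples from a Chat negative and 3 from a Chat positive sorting gate. Chat encodes choline acetyltransferase, which makes acetylcholine. The sources used here do not give strain, age, sex, tissue, treatment or the way Chat was detected. They also do not tie the samples of a gate to different animals, and p-values therefore cover the spread among these 6 libraries alone, which may be technical.

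The respiratory chain sits in the inner mitochondrial membrane. Complex I takes electrons from NADH and complex II from succinate, ubiquinone carries them to complex III, cytochrome c carries them to complex IV, and complex IV passes them to oxygen. Complexes I, III and IV pump protons as they do so, and ATP synthase uses the gradient. All subunits of complex II and cytochrome c are encoded in the nucleus, while the other complexes also hold subunits encoded by mitochondrial DNA. ILC2s are known to rely on mitochondrial respiration as well as on glycolysis.

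Libraries held 37154269 to 50361306 counts, of which the 35 genes took 0.498% to 0.621%. Chat checked the labels, at 16.5 to 26.5 CPM in Chat negative libraries and 169 to 204 CPM in Chat positive libraries. CPM are counts per 1000000 counts of a library's total times its edgeR TMM factor. All 10 ILC2 markers, among them Gata3 and Il7r, were detected, with at least 529 counts in every library. The 4 B cell markers had at most 6 counts and the 4 NK and ILC1 markers at most 15 counts in a library. The libraries numbered 2 stood apart in both gates. Among ILC2 markers, Il7r was at 797 and 732 CPM in Chat negative 2 and Chat positive 2 and at 1153 to 1497 CPM in the others, and Gata3 at 1829 and 1602.8 against 2355 to 2544 CPM. Not all ILC2 markers were lower there: Chat negative 2 was the highest of its gate for Il17rb (18.5 CPM), Il13 (317) and Areg (271). Chat positive 2 was the lowest of its gate for Il13 (377 CPM) and Areg (309) and lay between the others for Il17rb (14.9). The basophil protease gene Mcpt8 was at 30.8 and 24.9 CPM in Chat negative 2 and Chat positive 2 and at 124 to 203 CPM in the other 4 libraries, while the mast cell genes Mcpt4 and Cpa3 had 0 counts in all 6. Fcer1a, also listed as a mast cell and basophil marker, had 2 counts in Chat negative 1, 1 in Chat positive 2 and 0 in the others. Epcam, an adhesion gene of epithelium and some leukocytes, was at 34.9 and 31.5 CPM in those libraries and at 52.7 to 87.0 CPM in the others, with Trpm5 at 0 and Dclk1 at no more than 1 count. In sorted bulk samples, fewer cells of a type and less RNA per cell cannot be told apart.

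No subunit passed the threshold between the gates, and the values lay slightly above 0 for most. With edgeR's quasi-likelihood test and Benjamini-Hochberg adjustment over the 12967 genes that passed the filter on low counts, 0 of 35 subunits had an adjusted p under 0.05, against 0.00771% of all genes, which is Chat alone. All 35 subunits passed that filter. Their smallest adjusted p was 1.00, and 0 of 35 had an unadjusted p under 0.05, against 2.43% of all genes. DESeq2, which called 0.0308% of all genes, and limma-voom, which called 0.00771%, also called 0 of 35 and put 0 of 35 under an unadjusted p of 0.05. A positive log2 change means a higher level in the Chat positive gate throughout, and its standard error (SE) is derived from the edgeR statistic. Log2 changes ran from -0.06 to 0.33 over the subunits with a median of 0.11, beside a median of 0.00443 over all genes. The log2 change was above 0 for 31 of 35 subunits, against 50.9% of all genes. Only the 4 subunits Sdha, Cox5a, Cox6a1 and Cox8a lay below 0. The gates did not overlap, with Chat positive above, for 3 of 35 subunits, against 4.53% of all genes, and with Chat positive below for 0 of 35, against 3.61%, or 8.14% in either direction.

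Levels were high for most subunits and very low for 3. Per kb of principal transcript, used here to set different genes side by side, 31 of 35 ranked above 80% of the genes tested with a known length. The annotated length need not be that of the transcript present. For Cox6c the principal transcript has 738 bases and the longest 3038. The order ran from Cox4i1 at 609 CPM per kb, Cox6a1 at 525, Ndufa1 at 459 and Cox6b1 at 442 down to Ndufs3 at 42.5 and Sdhc at 33.1. The next genes in the order were Cox7c at 2.98, Sdhd at 2.83 and Cycs at 1.11 CPM per kb, with only 51 to 213 counts in a library. Each of these 3 proteins is an obligate part of the chain. The 2 highest genes did not separate beyond their spread in Chat negative libraries, with Cox4i1 at 597 ± 34.3 and Cox6a1 at 536 ± 64.4 CPM per kb (SD, n = 3). Cox7c and Sdhd, at 2.64 ± 0.586 and 2.71 ± 0.397 CPM per kb in Chat negative libraries, did not separate either. Near-identical copies of the coding sequence (at least 90% identity over at least 80% of it) in the GENCODE transcripts were found for 12 of 35 subunits. Cycs had 9 such copies and Cox7c 4, but Sdhd had 0, while Uqcrb and Cox7b, with 4 copies each, stood at 109 and 145 CPM per kb. The treatment of reads that match several places is not stated, so values of these 12 genes are uncertain, and the part of the copies in the low values was not tested. In addition, 10 of 35 genes overlap another annotated gene, and the strand setting of the counting is not given.

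**Figure D1:**
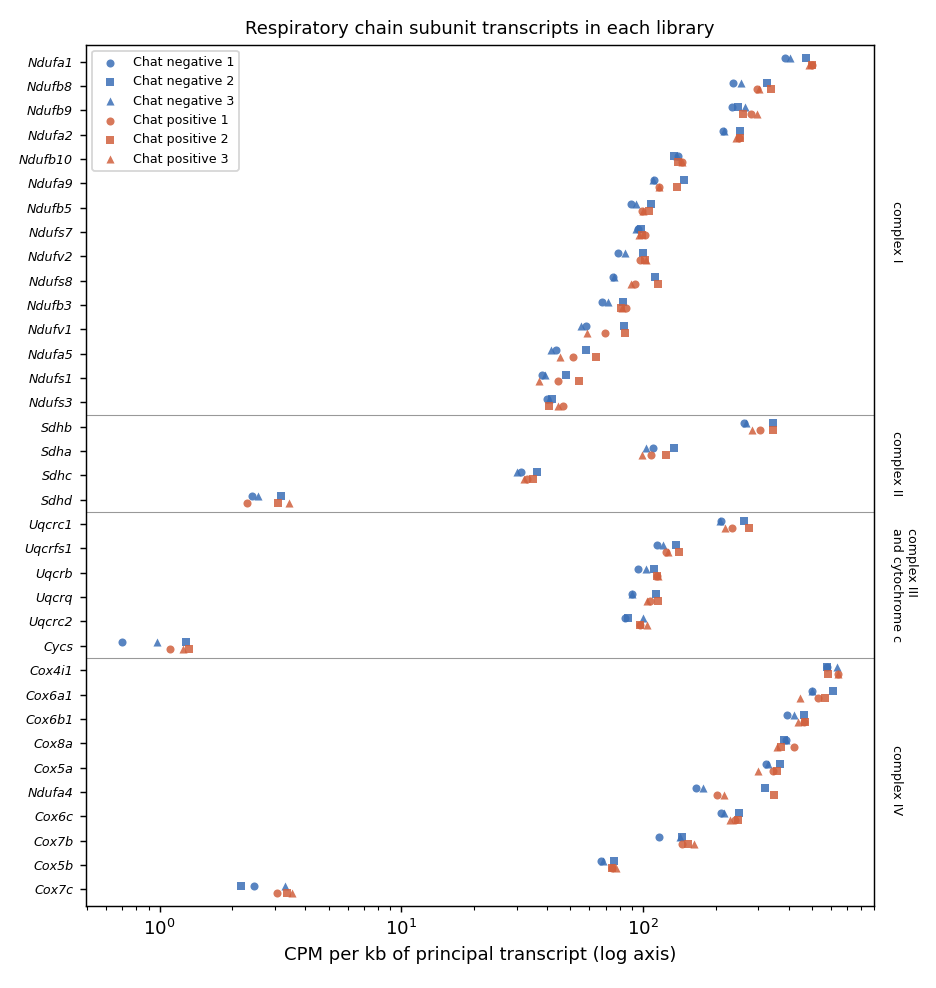
Level of each subunit transcript in each library, in CPM per kb of principal transcript on a log axis, grouped by complex and ordered by mean level. Blue points are Chat negative and orange points Chat positive libraries, and the shape gives the sample number. Most genes lie between 33.1 and 609 CPM per kb, and Sdhd, Cycs and Cox7c lie far below.

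Many nuclear genes of the respiratory chain are known to be controlled by the transcription factors NRF1, GABP and YY1. Promoters from the RefSeq table of GRCm38.p6 are shown here to let the letters of those motifs be seen in some members and missed in others. A window from 250 bases before to 50 after the gene start was at hand for 26 of the 35 genes, as 27 windows. The NRF1 motif (GCGCA, then any base N, then GCGC) was searched on both strands with overlapping matches counted. It was found in 6 of 27 windows (22.2%), from 5 genes, and in 4.6% of all 32851 windows of the same length. The 2 windows of Ndufa5 overlap and hold the same match. All windows were counted whether or not their gene was expressed here. The GABP motif CCGGAAG was found in 7 of 27 (25.9%), against 8.86% of all windows, and the YY1 motif AAGATGGC in 3 of 27 (11.1%), against 2.75%. Of the 26 genes, 13 had a match to at least 1 of the 3 motifs. A match describes letters and shows no binding. The 5 stretches printed run 5′ to 3′ on the gene's strand, from 150 bases before to 30 after the start. They are the window with most NRF1 matches (Sdha), 2 windows with both NRF1 and GABP matches (Sdhd, Cox6a1), and 2 without a match to any of the 3 motifs, from genes whose gates did not overlap (Ndufa1, Cox7b). Capitals mark the matches.
Sdha, chr13:74350211-74350390, minus strand: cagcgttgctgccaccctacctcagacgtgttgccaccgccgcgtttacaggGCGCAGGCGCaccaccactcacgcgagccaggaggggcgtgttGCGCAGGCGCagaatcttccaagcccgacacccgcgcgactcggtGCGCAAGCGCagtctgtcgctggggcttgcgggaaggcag
Sdhd, chr9:50603820-50603999, minus strand: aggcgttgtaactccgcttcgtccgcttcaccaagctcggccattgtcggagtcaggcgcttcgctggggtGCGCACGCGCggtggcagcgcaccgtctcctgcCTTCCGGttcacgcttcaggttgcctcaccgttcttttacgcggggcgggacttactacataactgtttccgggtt
Cox6a1, chr5:115348929-115349108, minus strand: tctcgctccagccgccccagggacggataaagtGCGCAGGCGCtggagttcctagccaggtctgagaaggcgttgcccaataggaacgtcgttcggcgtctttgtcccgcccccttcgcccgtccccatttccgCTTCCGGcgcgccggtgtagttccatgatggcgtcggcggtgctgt
Ndufa1, chrX:37191209-37191388, minus strand: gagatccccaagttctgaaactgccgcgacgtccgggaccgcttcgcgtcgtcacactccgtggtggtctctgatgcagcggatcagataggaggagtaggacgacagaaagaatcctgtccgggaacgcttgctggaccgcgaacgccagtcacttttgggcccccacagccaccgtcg
Cox7b, chrX:106015550-106015729, plus strand: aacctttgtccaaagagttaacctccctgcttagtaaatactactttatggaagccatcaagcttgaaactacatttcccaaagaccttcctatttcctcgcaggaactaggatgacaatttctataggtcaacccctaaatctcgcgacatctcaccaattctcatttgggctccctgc
All 3 matches of the Sdha window lie in the stretch printed, and 1 of the 2 NRF1 matches of the Cox6a1 window does. Motifs that are not in a window say nothing of the factor.

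All 15 complex I subunits lay above 0, with log2 changes of 0.01 to 0.23 and a median of 0.13. With an offset for transcript length and GC content, 4 of the 15 lay below 0. That offset was fitted to these same libraries, so it also takes out gate differences shared by genes of like length and GC content. None of the 15 passed the edgeR threshold. Ndufa1, a small membrane-arm subunit (Entrez 54405, mm10 chromosome X, 37187588 to 37191238, where it overlaps Rnf113a1), gave 163, 198 and 171 CPM in the Chat negative libraries numbered 1, 2 and 3 and 209.5, 210.5 and 203 CPM in the Chat positive libraries in the same order. All 3 Chat positive libraries lay above all 3 Chat negative ones, by little over Chat negative 2. Its log2 change was 0.23 (SE 0.11), a 1.17-fold difference, and higher in Chat positive for 3 of 3 numbers. Ndufa1 has the shortest transcript of the 35, and with the offset for length and GC content its log2 change was 0.03. The edgeR test gave it the smallest unadjusted p of the 35, 0.0673, and an adjusted p of 1.00. Ndufv2, a subunit of the NADH-oxidising module, was at 134, 170.0 and 143 CPM in the Chat negative and 165, 174 and 174 CPM in the Chat positive libraries. Ndufv2 overlaps Ankrd12 on the genome. Chat negative 2 lay above Chat positive 1, so the gates overlapped, and the log2 change was 0.20 (SE 0.12). Ndufb9, an accessory subunit of the membrane arm, was at 164, 174 and 185 CPM in the Chat negative and at 197, 183 and 209 CPM in the Chat positive libraries. Only the pair Chat negative 3 and Chat positive 2 crossed, and the log2 change was 0.17 (SE 0.10). Ndufs3, a core subunit next to the ubiquinone-binding region, had the lowest level per kb of the complex, at 41.9, 44.0 and 42.9 CPM in the Chat negative and 48.6, 42.7 and 46.4 CPM in the Chat positive libraries. Its gates overlapped through Chat positive 2, with a log2 change of 0.10 (SE 0.11). Over the complex, summed levels were 1604, 1969 and 1654 CPM in the Chat negative and 1883, 2018 and 1845 CPM in the Chat positive libraries, so Chat negative 2 stood with the Chat positive libraries.

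Complex II, which is also the succinate dehydrogenase of the citric acid cycle, had the lowest median log2 change of the complexes, 0.06 over 4 subunits. Sdha, the flavoprotein that oxidises succinate (Entrez 66945, chromosome 13, 74322255 to 74350240), was at 320.1, 390.3 and 297 CPM in the Chat negative and 314, 363 and 287 CPM in the Chat positive libraries. It was lower in Chat positive for 3 of 3 numbers, by less than the spread within a gate, with a log2 change of -0.06 (SE 0.14). Sdhb, the iron-sulfur subunit, was at 299.8, 394 and 304 CPM in the Chat negative and 347, 395 and 323 CPM in the Chat positive libraries, a log2 change of 0.09 (SE 0.14). The 2 libraries numbered 2 were nearly equal and highest for Sdhb. Sdhd, a membrane anchor, had 105 to 195 counts in a library and stood at 2.98, 3.90 and 3.15 CPM in the Chat negative and 2.84, 3.79 and 4.22 CPM in the Chat positive samples, with a log2 change of 0.11 (SE 0.26). Both the lowest and the highest library for Sdhd were Chat positive. Sdhc, the other membrane anchor, had overlapping gates too.

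All 6 genes of complex III and cytochrome c lay above 0 and were higher in Chat positive for 3 of 3 numbers, with a median log2 change of 0.14. Over all 35 subunits this held for 22, against 22.3% of all genes. Uqcrb, a subunit that binds ubiquinone (Entrez 67530, chromosome 13, 66900576 to 66905350), was at 51.1, 59.5 and 55.2 CPM in the Chat negative and at 61.4, 61.3 and 61.5 CPM in the Chat positive libraries. The Chat positive values were almost the same and lay above all Chat negative values, with a log2 change of 0.15 (SE 0.10) and an edgeR adjusted p of 1.00. With the offset for length and GC content, Uqcrb and Uqcrfs1 lay below 0, at log2 changes of -0.13 and -0.02. Uqcrc2, a core protein, was at 160.5, 165 and 189 CPM in the Chat negative and 184, 184 and 197 CPM in the Chat positive libraries, a log2 change of 0.14 (SE 0.10). Its gates overlapped through Chat negative 3. Uqcrc1, the partner core protein and the highest gene per kb here, took 346, 433 and 344 CPM in the Chat negative and 387, 455 and 361 CPM in the Chat positive samples, a log2 change of 0.10 (SE 0.14). Uqcrq, a small subunit of the membrane part, gave 137, 172 and 137 CPM on the Chat negative and 163, 175 and 158 CPM on the Chat positive side, a log2 change of 0.16 (SE 0.12). For both genes Chat negative 2 lay among the Chat positive libraries. Cycs, which encodes somatic cytochrome c, had 92, 174 and 132 counts in the Chat negative and 127, 213 and 157 counts in the Chat positive libraries. That is 2.17, 4.01 and 3.06 CPM against 3.43, 4.14 and 3.90 CPM, with overlapping gates and a log2 change of 0.31 (SE 0.29).

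Complex IV, the oxidase that reduces oxygen, had 7 of 10 subunits above 0 and a median log2 change of 0.09. Cox7b, a small membrane subunit (Entrez 66142, chromosome X, 106015700 to 106022450), was at 117, 145 and 143 CPM in the Chat negative and at 146, 154 and 163 CPM in the Chat positive libraries. The gates did not overlap, although Chat negative 2 and Chat positive 1 were nearly equal, and the log2 change was 0.19 (SE 0.12). With the offset for length and GC content the log2 change of Cox7b was -0.02. Cox4i1, a regulatory subunit and the gene with the highest level per kb of all 35, was at 442, 442 and 487 CPM in the Chat negative and at 490.3, 445 and 491 CPM in the Chat positive libraries, a log2 change of 0.06 (SE 0.10). Each gate held both lower and higher libraries for Cox4i1. Cox5b, a peripheral subunit on the matrix side, gave 58.2, 65.4 and 59.3 CPM on the Chat negative and 64.1, 64.7 and 67.1 CPM on the Chat positive side, a log2 change of 0.10 (SE 0.10). Cox7c had 51 to 94 counts in a library, which is 1.32, 1.18 and 1.78 CPM against 1.65, 1.83 and 1.91 CPM. Its gates overlapped through Chat negative 3, and its log2 change of 0.33 (SE 0.31) was the largest of the 35 and also among the least precise. The tissue-restricted isoforms, which replace some of these subunits in muscle, heart, testis or lung, were low. Of 9 listed, 3 (Cox7b2, Cox8b, Cox8c) had 0 counts in all libraries. The highest of the list, Cox6b2, was at 2.39 ± 0.264 among the Chat negative and 2.54 ± 0.321 CPM among the Chat positive samples (SD, n = 3), and Cox7a1 at 1.34 ± 0.201 and 1.85 ± 0.362 CPM.

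**Figure D2:**
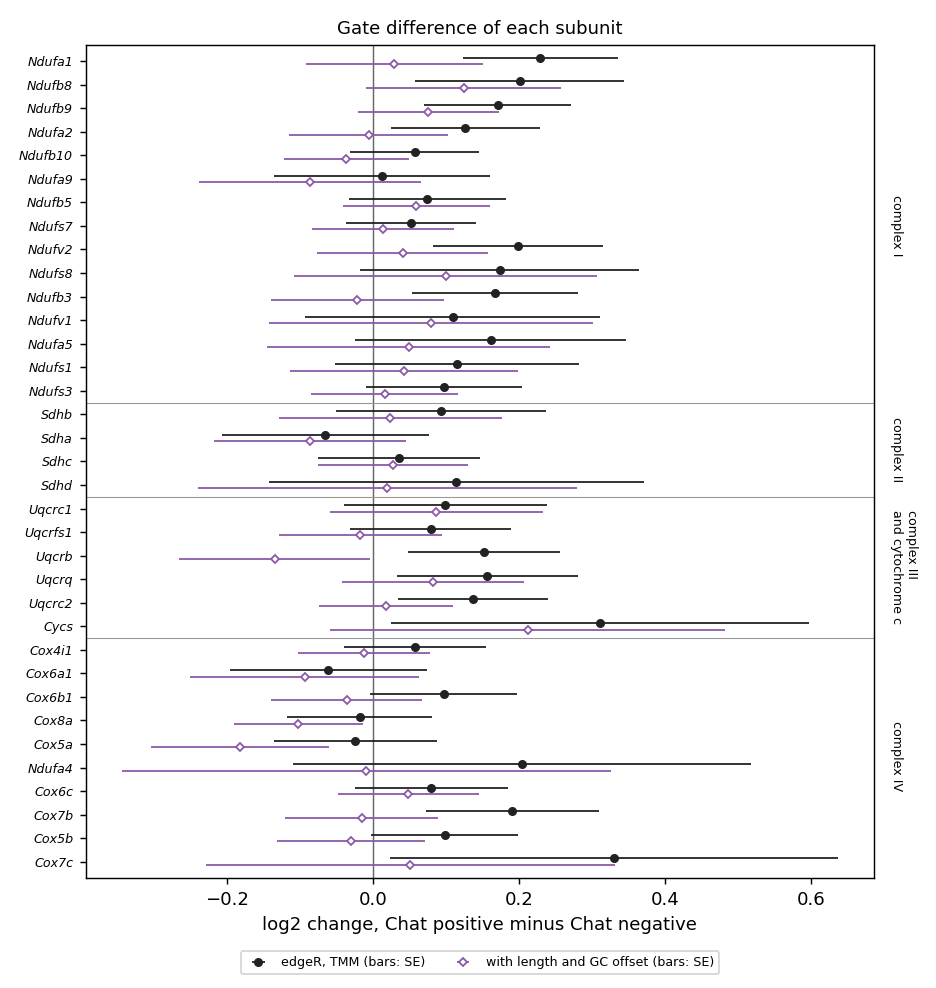
Log2 change of each subunit, Chat positive minus Chat negative, with bars of 1 SE, from the edgeR fit of 3 against 3 libraries (filled circles) and from the same fit with an offset for transcript length and GC content (open diamonds). With the offset, the number of subunits above 0 goes from 31 to 20 of 35. The offset was fitted to the same libraries and takes out gate differences shared by genes of like length and GC content, whatever their cause.

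Subunit levels were high in both libraries numbered 2, whichever the gate. Ndufa4 (Entrez 17992, chromosome 6), chosen for mention after its values were seen, was at 101, 196 and 108 CPM in the Chat negative and at 123, 212 and 131 CPM in the Chat positive libraries. The mean of the libraries numbered 2 was 1.76 times the mean of the other 4, while the log2 change between the gates was 0.20 (SE 0.31). For 20 of 35 subunits both libraries numbered 2 were the highest of the 6, against 26.3% of all genes tested, and for 0 of 35 they were the lowest, against 23.4%. The ratio of their mean to that of the other 4 libraries had a median of 1.12 over the 35 and was above 1 for 28. Beside this, the summed level of the 5 myeloid markers was 8.16 and 8.25 CPM in the libraries numbered 2 and 20.2 to 23.9 CPM in the others, and that of the 5 T cell markers 19.4 to 23.7 against 32.8 to 44.5 CPM. Cd68 made up most of the first sum and Cd3g of the second. The T cell genes did not move as 1 group: Trac was at 1.29 and 2.00 CPM in the libraries numbered 2 and at 0.449 to 1.17 CPM in the others, and Cd4 had 50 counts in Chat positive 2 and at most 6 elsewhere. Mcpt8 made up nearly all of the summed level of the 4 mast cell and basophil markers, of which 2 were at 0 counts. The part of these markers in the result was not tested. Within number 1, 33 of 35 subunits were higher in the Chat positive library, against 53.3% of all genes, with a median log2 difference of 0.21. Within number 2 it was 23 of 35, against 52.3%, with a median of 0.02, and within number 3 it was 30 of 35, against 50.4%, with a median of 0.10. Leaving out Chat negative 2 alone gave a median of 0.21, with 0 called in edgeR and 5 of 35 at an unadjusted p under 0.05, against 4.74% of all genes. Without both libraries numbered 2, 31 of 35 lay above 0 (50.6% of all genes) with a median of 0.16, 0 passed in edgeR and 7 had an unadjusted p under 0.05, against 8.86% of all genes. Adding the sample number as a block moved the count of genes called by edgeR from 1 to 44 (0.339%), with 0 of 35 subunits among them, but the count was 1 without edgeR's robust dispersions. Chat itself was not among the 44, with an edgeR adjusted p of 0.0961. With the block and robust dispersions the subunits' smallest adjusted p was 0.134, for Ndufa4, and 9 of 35 had an unadjusted p under 0.05, against 16.5% of all genes. DESeq2 with the block called 3.56% of all genes and again 0 of 35.

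**Figure D3:**
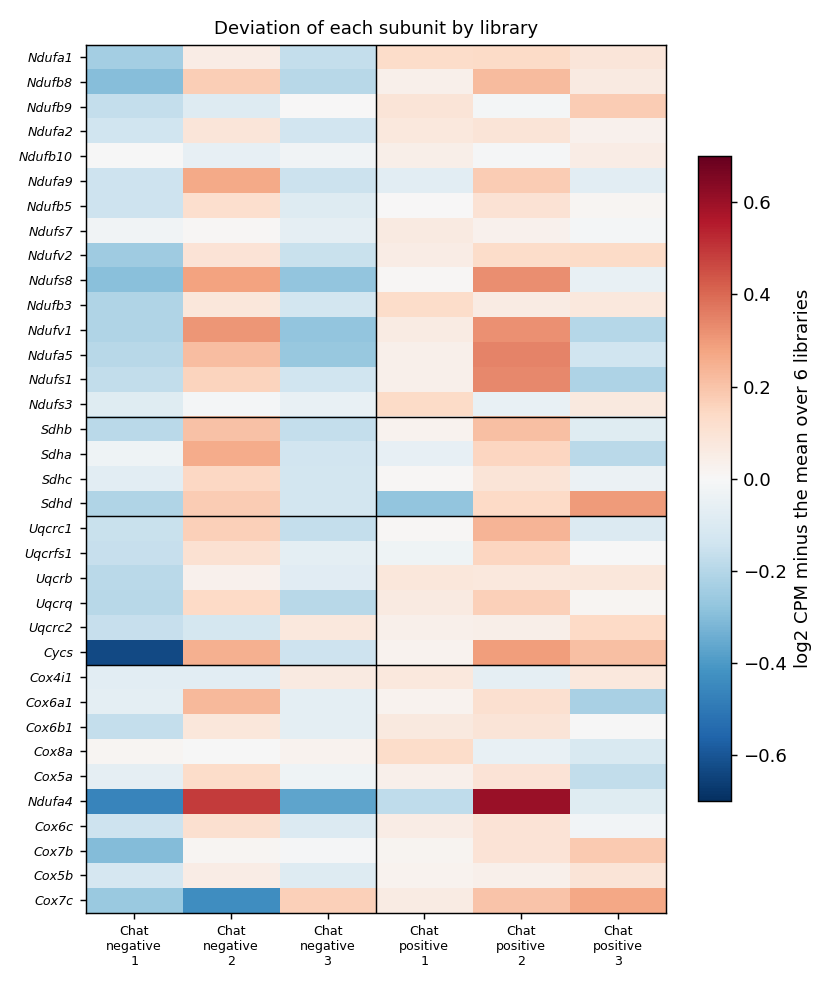
Deviation of each subunit in each library, as log2 CPM minus its mean over the 6 libraries, with red above and blue below the mean. Columns are libraries by gate and sample number. Chat negative 2, Chat positive 1 and Chat positive 2 are red for most rows, while Chat negative 1 and 3 are mostly blue. The median over the rows is 0.112 in Chat negative 2, 0.111 in Chat positive 2, 0.0361 in Chat positive 1 and 0.0139 in Chat positive 3. Ndufa4 has the largest values, 0.49 in Chat negative 2 and 0.60 in Chat positive 2.

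Transcript length moved with the gate difference across all genes. The subunits have short transcripts, with principal transcripts of 419 to 3171 bases and a median of 983, against a median of 2981 over the genes tested. The median log2 change of all genes went from 0.13 for transcripts under 500 bases (61 genes) through 0.09 at 500 to 750 bases and 0.07 at 1000 to 1500 bases to -0.10 at 5000 bases and over (2246 genes). Of the 31 subunits under 2000 bases, 28 lay above 0 with a median of 0.11, against 67.8% of the 3230 genes of that length, with a median of 0.07. Below the median of their length class lay 9 of 35 subunits, namely Ndufa9, Ndufb10, Ndufs7, Sdha, Cox4i1, Cox5a, Cox6a1, Cox6c and Cox8a. With a per-library offset for the length and GC content of the longest transcript, 20 of 35 subunits lay above 0, against 48.0% of all genes, and the median was 0.02. By complex the medians were then 0.04 for complex I, 0.02 for complex II, 0.05 for complex III with cytochrome c and -0.02 for complex IV. Under this offset 11 subunits went from above to below 0. They were the complex I subunits Ndufa9 (-0.09), Ndufb10 (-0.04), Ndufb3 (-0.02) and Ndufa2 (-0.01), Uqcrb (-0.13) and Uqcrfs1 (-0.02) of complex III, and Cox6b1 (-0.04), Cox5b (-0.03), Cox7b (-0.02), Cox4i1 (-0.01) and Ndufa4 (-0.01) of complex IV. With the block and the offset together, 21 of 35 lay above 0, against 48.6%, the median was 0.02, and edgeR called 0.0308% of all genes and 0 of 35. Each offset was fitted to the same libraries with the gate difference left in. A move toward 0 is therefore built in for genes that follow the length trend, whatever its cause. The share of counts in genes with a longest transcript under 1 kb was 4.38% ± 0.240 in the Chat negative and 4.495% ± 0.344 in the Chat positive gate (SD, n = 3, two-sided exact permutation p = 0.7, where 3 against 3 cannot go below 0.1). The slope of log2 level on transcript length, per doubling of length, did separate the gates. It was 0.0484, 0.0375 and 0.0150 in the Chat negative libraries numbered 1, 2 and 3. In the Chat positive libraries it was -0.0757, -0.00424 and -0.0209, furthest from 0 in Chat positive 1. The cause of the length trend was not tested.

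**Figure D4:**
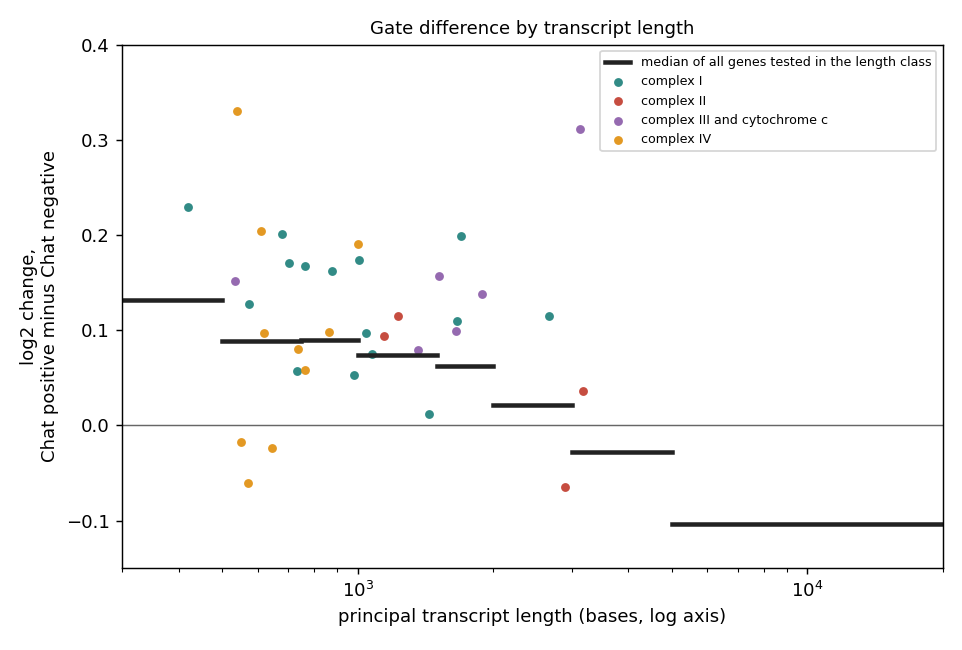
Log2 change of the 35 subunits against the length of their principal transcript on a log axis, coloured by complex, with black bars for the median over all genes tested in each length class (the outermost bars run to the axis ends). The bars go down from 0.13 to -0.10 with length, and most subunits lie at the short end, where the bars are above 0.

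Other genes of the pathway also gave small differences, and edgeR called 0 genes in each of the 9 related lists. The counts above 0 in these lists stand beside 50.9% of all genes. Of 21 other complex I subunits, 15 lay above 0 with a median log2 change of 0.09. Values that follow are mean ± SD CPM (n = 3), Chat negative first. Among these genes Ndufs4, an accessory subunit, stood at 78.2 ± 6.36 and 89.2 ± 4.93 CPM, Ndufa7 at 102 ± 7.38 and 115 ± 14.8, and Ndufb6 at 91.4 ± 18.3 and 107 ± 12.3. Of the other complex III subunits 3 of 4 were tested and 3 lay above 0. The untested one, Uqcr11, had at most 1 count in a library, and the cause was not tested. Cyc1, which encodes cytochrome c1, was at 161 ± 22.1 and 177 ± 21.2 CPM, Uqcr10 at 121 ± 20.3 and 129 ± 18.3, and Uqcrh at 136 ± 14.7 and 138 ± 20.7. The complex IV subunit Cox7a2 was at 9.96 ± 0.873 and 10.1 ± 0.951 CPM and the supercomplex factor Cox7a2l at 38.1 ± 5.64 and 38.7 ± 5.80. Among tissue-restricted isoforms 5 of 9 were tested and 4 lay above 0, with Cox4i2 at 0.164 ± 0.0857 and 0.244 ± 0.0758 CPM and Cox6a2 at 0.388 ± 0.0374 and 0.494 ± 0.0896.

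ATP synthase, which uses the proton gradient, had 12 of 16 genes above 0 with a median of 0.07 that became -0.02 with the length and GC offset. Atp5e was at 119.6 ± 2.84 and 129.6 ± 7.80 CPM, Atp5c1 at 370.0 ± 25.8 and 398 ± 13.2, and Atp5o at 131 ± 17.6 and 143 ± 14.8. Of 43 assembly factors 41 were tested, 34 lay above 0 with a median of 0.08, and 1 had an unadjusted p under 0.05, a share near the 2.43% of all genes. That gene was Sdhaf1, an assembly factor of complex II, at 15.4 ± 1.55 and 19.8 ± 1.49 CPM without overlap between the gates. Sdhaf4 was at 13.98 ± 2.27 and 17.7 ± 2.18 CPM and Uqcc2, an assembly factor of complex III, at 56.1 ± 4.30 and 63.4 ± 2.79.

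Of the 13 subunits encoded by mitochondrial DNA, 8 were tested and 8 lay above 0, with a median of 0.19 that became -0.09 with the length and GC offset. ND1 of complex I was at 425 ± 110.2 and 536 ± 72.8 CPM, ND2 at 50.4 ± 15.2 and 64.2 ± 10.3, and CYTB of complex III at 433 ± 83.9 and 499.5 ± 48.4. Nuclear and mitochondrial subunits did not share their high libraries: the 13 genes summed to 1316, 1478 and 2065 CPM in the Chat negative and to 1760, 1599 and 2236 CPM in the Chat positive libraries, highest in number 3. ND1, CYTB and COX1 made up most of these sums. ND4L had 0 counts in all libraries, COX2, COX3, ATP6 and ATP8 at most 18 in a library, and ND3 4 to 34. The counting program is not given, and its part in these low values was not tested. Of 15 regulators of mitochondrial biogenesis 14 were tested and 9 lay above 0. Tfb1m was at 1.95 ± 0.518 and 3.08 ± 0.954 CPM, Tfb2m at 3.00 ± 0.0401 and 3.68 ± 0.523, and the mitochondrial DNA polymerase Polg at 134 ± 8.06 and 142 ± 4.97. Of 9 supercomplex and cristae organisers 3 lay above 0, with Stoml2 at 98.7 ± 7.0 and 112 ± 9.98 CPM, the fusion protein Opa1 at 91.7 ± 3.20 and 84.99 ± 10.6, and Chchd6 at 9.32 ± 2.19 and 9.95 ± 0.986.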

How the data were processed

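The deposited table gives raw read counts per Entrez gene in 1 column per library. The authors applied no normalisation, judging from whole numbers with different column sums. Per the labels' protocols, cDNA libraries came from a Clontech SMARTer kit for low RNA input. STAR 2.3.0, CASAVA 1.8.2 and the mm10 build appear in the submitters' processing notes, and the sources used here do not give the counting program or its strand setting.

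Symbols and coordinates came from RefSeq GRCm38.p6, the assembly of mm10, for 25275 of 27179 IDs. Lengths came from GENCODE vM21, either the longest transcript or the principal transcript (the APPRIS choice in the basic set). Genes were kept by filterByExpr (12967) and tested in R 4.3.3 with edgeR 4.0.16 (TMM, robust quasi-likelihood F-test, two-sided, Benjamini-Hochberg, 5%), without a block. The tests were checked on simulated data. Alternatives used limma 3.58.1 and DESeq2 1.42.0, other scalings and filters, the sample number as a block, an offset for length and GC (loess, span 0.4) and leaving out libraries. Added after seeing the data were the principal-transcript offset, further blocked fits and the fit without both libraries numbered 2. Same-numbered libraries deviated together from their gate means, with correlations across genes of 0.29, 0.67 and 0.43, all over 0.1, so blocked counts are given beside the unblocked ones. Log2 changes, SEs and p-values are from the unblocked fit unless the block is named. The pairing comes from the data. Chat negative 1 against Chat positive 3 was at 0.30 and Chat negative 3 against Chat positive 1 at 0.20. The 3 deviations of a gate sum to 0, so a number 2 that stands apart raises the correlations between numbers 1 and 3. The correlations therefore set number 2 apart but do not settle the pairing of numbers 1 and 3. No 2 libraries of a gate held the same values.

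The members and gene lists were chosen with earlier results of these data known. Values in every library or mean ± SD were given, in each complex, for the 3 subunits with the smallest p, the highest and lowest level per kb, and those without overlap between the gates. In each related list the 3 genes with the smallest p were named. Ndufa4 was added after its values were seen.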

Additional observations from a re-analysis of the deposited data

How the results depend on the processing

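In all 23 alternatives 0 subunits were called, and a filter of 5 CPM left 32 of 35 to test. The count of all genes called, 1 in edgeR, was 4 in DESeq2, 44 with the replicate block (1 without robust dispersions), 4 with the block and either length offset, 461 in DESeq2 with the block and 2 without both libraries numbered 2. It ran from 0 to 1 when single libraries were left out: the call of Chat was lost without Chat negative 1, Chat negative 3, Chat positive 1 or Chat positive 3. Chat also lost its edgeR call with the block (adjusted p 0.0961) and with the block and either offset (0.101 and 0.125), within a range of 8.39e-43 to 0.247 over all alternatives, and kept it with the block without robust dispersions (0.00241). The subunits' median log2 change ran from 0.0551 without Chat negative 1 to 0.205 without Chat negative 2, and was 0.00440 and 0.00787 with the principal-transcript offset, without and with the block.

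Under an offset for length and GC, 11 subunits above 0 went below 0, 4 of them in complex I (13 and 5 with the principal-transcript offset). Of the genes given by the naming rule, with Ndufa4, these went below 0: Uqcrb -0.134, Cox4i1 -0.0117, Cox5b -0.0293, Cox7b -0.0153, Ndufa4 -0.00889, Uqcrh -0.144, Uqcr10 -0.0272, Cox7a2 -0.108, Cox7a2l -0.0817, Atp5o -0.00946 and CYTB -0.0243. With the block added, they were Uqcrb -0.129, Cox4i1 -0.0104, Cox5b -0.0280, Cox7b -0.0122, Uqcrh -0.147, Uqcr10 -0.0281, Cox7a2 -0.105, Cox7a2l -0.0808, Atp5o -0.00723 and CYTB -0.0184. With the principal-transcript offset they were Uqcrb -0.104, Cox4i1 -0.0124, Cox5b -0.0300, Cox7b -0.0223, Ndufa4 -0.00504, Uqcrh -0.128, Cox7a2 -0.103, Cox7a2l -0.0871, Atp5c1 -0.0139 and CYTB -0.0373, and with the block as well Uqcrb -0.100, Cox4i1 -0.0121, Cox5b -0.0289, Cox7b -0.0197, Uqcrh -0.131, Cox7a2 -0.0998, Cox7a2l -0.0854, Atp5c1 -0.0140 and CYTB -0.0311. Leaving out single libraries turned the sign of 11 subunits in at least 1 case. Those not covered by the naming rule were Cox5a, Cox6a1, Cox8a, Ndufa9, Ndufs1, Ndufv1 and Sdhc. For the named genes the ranges were Sdha from -0.162 to 0.0575, Sdhd from -0.0264 to 0.260, Uqcrc1 from -0.00203 to 0.217, Ndufa4 from -0.0849 to 0.573, Uqcrh from -0.0863 to 0.133, Uqcr10 from -0.0298 to 0.242, Cox7a2 from -0.0607 to 0.0917, Cox7a2l from -0.0928 to 0.135, Chchd6 from -0.0860 to 0.233. The gates' difference in the short-transcript share, 0.117 percentage points, ran from -0.0354 without Chat positive 1 to 0.304 without Chat positive 2. The cause was not tested. The block changed no call of a subunit. Low counts limit the precision of Cycs, Cox7c and Sdhd, with at most 213 counts in a library, and the cause of the low counts was not tested.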
